A study of Mus musculus with 8 samples.

Results

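The genes that encode the proteins of the cytosolic ribosome were followed in mouse cortical bone that lacked or carried the mechanically activated channel PIEZO1. Members were chosen by symbol alone: gene rows named Rpl or Rps followed by a number, with an optional a, x, y or l, together with *Rpsa*, *Rplp0*, *Rplp1* and *Rplp2*. The mitochondrial (Mrpl, Mrps) and S6 kinase (Rps6k) genes were left out. The symbol rule matched 87 of the 19201 rows, and 5 of those, *Rps3a2*, *Rps3a3*, *Rpl6l*, *Rps12l1* and *Rps4l*, are listed in RefSeq as pseudogenes and were left out too. This left 82 genes, 50 of the large and 32 of the small ribosomal subunit, and all 82 passed the filter on low counts. The rule used no measured value.

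RNA-Seq counts came from 4 *Prx1Cre; Piezo1fl/fl* libraries (*Piezo1*-deficient below) and 4 WT libraries, numbered replicates 1, 3, 4 and 5 in each genotype, from C57BL/6J mice aged 6 weeks. Tibial and femoral cortical bone was ground whole, so bone, marrow and attached tissue all gave RNA, and a change in a transcript per cell and a change in the number of cells that hold it cannot be told apart. *Prx1Cre* deletes in the limb mesenchyme that gives rise to osteoblasts and chondrocytes, and the other cells of the bone keep *Piezo1*. The labels do not say whether each library is a separate animal, so p-values measure the spread between these libraries, which may be technical. Sex and the counter of the reads are not given in the sources used here.

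A ribosome carries 1 copy of nearly every one of these proteins, and cells make them in matched amounts. Most of their mRNAs start with a run of pyrimidines, the 5′ terminal oligopyrimidine (TOP) tract, through which mTORC1 and the RNA-binding protein LARP1 adjust how much is translated. Their supply follows cell growth, and inherited shortage of single ribosomal proteins causes red cell aplasia and, in many patients, skeletal malformations. A few members have a sister gene that is used in particular tissues, such as *Rpl3l* in skeletal and heart muscle and *Rpl39l* in the testis.

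Total counts ran from 12090403 to 13841709 in the *Piezo1*-deficient and from 11963536 to 14536106 in the WT libraries, and the 82 genes took 1.76 to 2.29% and 1.98 to 2.20% of them. Levels are given as CPM, the counts scaled to a common library size after TMM adjustment. *Piezo1* itself was lower in the *Piezo1*-deficient libraries, at 131 to 146 CPM, against 194 to 214 CPM in WT (edgeR, adjusted p = 0.0027). The 13 osteoblast genes, *Col1a1* among them, summed to 230956 to 332324 CPM in *Piezo1*-deficient and 188296 to 230420 CPM in WT libraries, more than any other marker list. In the *Piezo1*-deficient libraries 19 of 20 skeletal muscle genes were called higher at an edgeR adjusted p under 0.05, against 2.04% of all genes tested. Of 18 growth plate chondrocyte genes 14 were called lower, against 0.973% of all. Several other marker lists also held called genes.

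The start-site windows below show how members differ in the pyrimidine run at their annotated start. They are RefSeq sequences on GRCm38.p6, running from 10 bases before to 20 bases from the annotated start, with runs of at least 5 C or T in capitals. *Rpl13a*, *Rplp2* and *Rps18* are examples of long runs (14, 10 and 11 bases), and the others are members whose values are singled out below. The median longest run was 6 over the 74 promoter windows of the members and 4 over those of all promoters. *Rpl3l* has 2 annotated starts.
Rpl13a (chr7:45128726-45128755, minus strand): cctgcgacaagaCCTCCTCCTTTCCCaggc
Rplp2 (chr7:141447641-141447670, plus strand): cagcgTCTTCCTTTCgccgccggacgccgc
Rps18 (chr17:33955646-33955675, minus strand): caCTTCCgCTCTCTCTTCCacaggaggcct
Rpl39l (chr16:10170218-10170247, plus strand): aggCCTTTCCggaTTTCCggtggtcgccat
Rpl41 (chr10:128549149-128549178, minus strand): gggccggctcggaagtgacgacaccgagca
Rpl23 (chr11:97782420-97782449, minus strand): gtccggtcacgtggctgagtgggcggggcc
Rps28 (chr17:33824543-33824572, minus strand): cgcgtgcggtctcgcgagagcgaaagtgag
Rpl3l, first start (chr17:24727816-24727845, plus strand): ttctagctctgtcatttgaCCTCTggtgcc
Rpl3l, second start (chr17:24732675-24732704, plus strand): caacagctacagtgccccaaatgtcctgaa

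RefSeq promoters were found for 62 of the 82 genes, 74 promoters in all. A run of at least 7 C or T lay in the window of 34 of these 74 (45.9%), against 17.9% of all 32851 mouse promoters. A C at the annotated start with 4 C or T after it stood in 13 of the 74 (17.6%), against 2.51% of all. CTTTCC, which is itself a run of C and T and so overlaps the first count, lay on the sense strand within 50 bases of the start in 22 (29.7%), against 4.69%. CCGGAAG, read on both strands over the 300 bases held for each promoter, was in 27 (36.5%), against 8.86%, and TATAAA lay in the 50 bases before the start of 1 (1.35%), against 2.63%. Annotated starts can miss the true one by some bases, so a window without a tract says nothing about the mRNA.

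None of the 82 genes differed between the genotypes at an adjusted p under 0.05 in the edgeR quasi-likelihood test, where 3.02% of the 15318 genes tested did (2.04% higher and 0.973% lower in *Piezo1*-deficient bone). At that share a set of 82 would hold few such genes, so this count by itself says little about the members. At an unadjusted p under 0.05, 5 members were higher (*Rpl3l*, *Rpl39l*, *Rpl41*, *Rps27a* and *Rps28*; all genes, 10.5%) and 1 was lower (*Rpl23*; all genes, 7.89%). The DESeq2 Wald test called 1 member higher, *Rpl3l*, and 1 lower, *Rpl23*, while it called 3.86% of all genes higher and 2.34% lower (6.2% in all). The median log2 fold change of the members, *Piezo1*-deficient over WT, was 0.042 (0.027 for the large and 0.050 for the small subunit), beside 0.005 over all genes tested. It was positive for 59 of 82 members, against 51.1% of all genes.

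The libraries set limits on the size of the change for most of these genes. The 95% interval of the fold change lay within 1.5-fold in either direction for 79 of 82 members, all but *Rpl3l*, *Rps28* and *Rpl39l*. The widest of those 79 belonged to genes with few counts, such as *Rps13* (-0.49 to 0.38 on the log2 scale) and *Rps27* (-0.41 to 0.43).

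**Figure D1:**
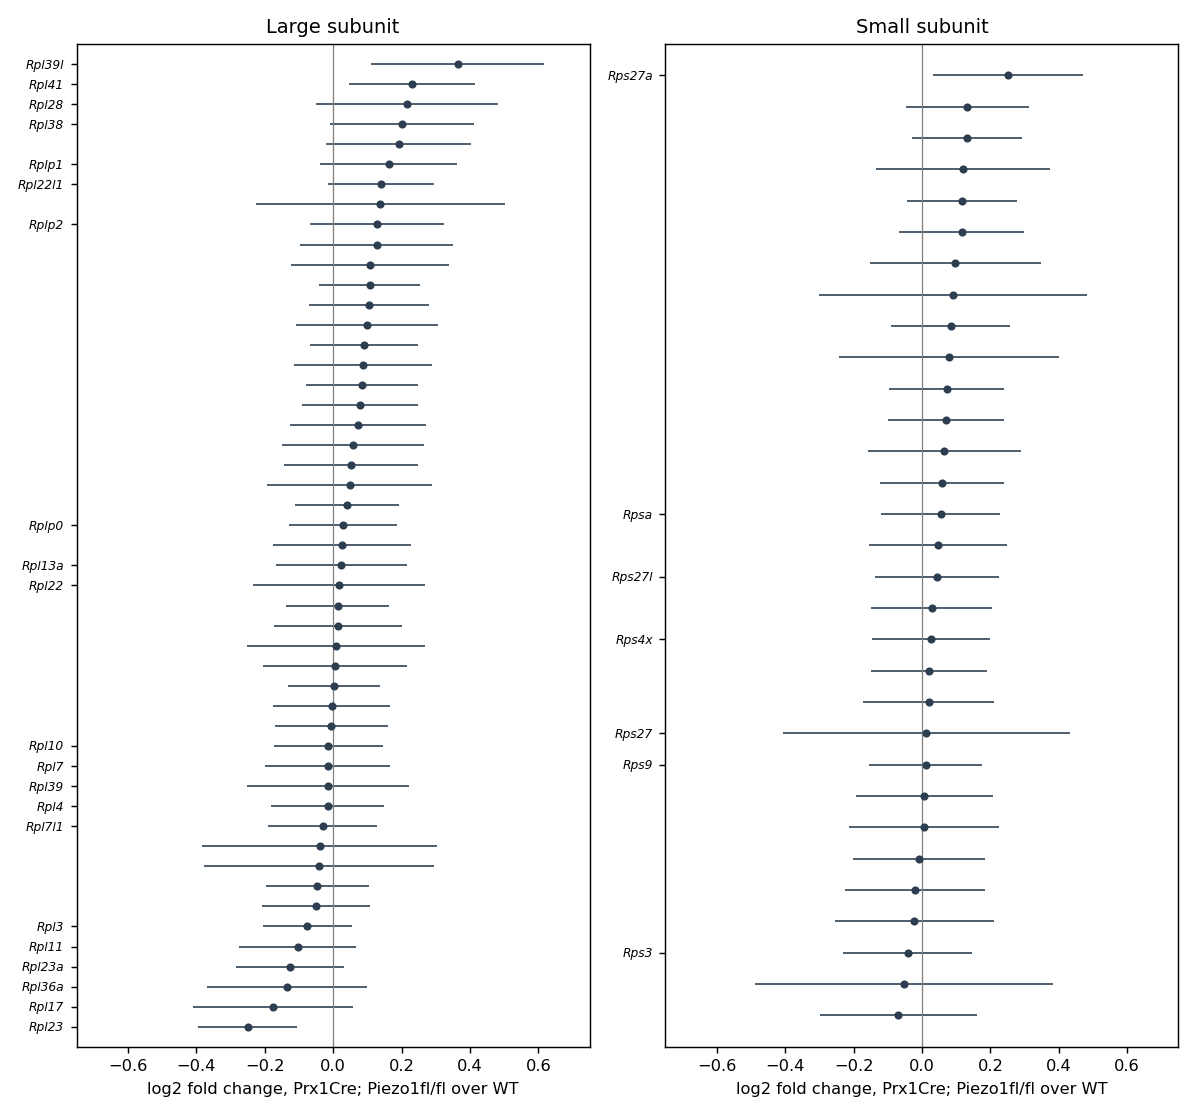
Log2 fold change of 80 ribosomal protein genes, *Prx1Cre; Piezo1fl/fl* over WT, for the large (left) and small (right) subunit; points are edgeR estimates and bars 95% intervals, with *Rpl3l* (2.34) and *Rps28* (2.62) beyond the axis left out, and labels mark genes whose values the text gives. Apart from these 2, all estimates lie between the -0.25 of *Rpl23* and the 0.36 of *Rpl39l*.

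The small positive shift depended most on 1 library. The summed level of the 82 genes was 19795, 19107, 23255 and 21075 CPM in *Piezo1*-deficient replicates 1, 3, 4 and 5, against 19733, 21105, 20514 and 19299 CPM in WT. The genotypes overlapped, at 20808 ± 1824 CPM in *Piezo1*-deficient and 20163 ± 805 CPM in WT bone (SD, n = 4 each), and replicate 4 of the *Piezo1*-deficient group stood highest. In that library 76 of 82 members were above their own mean over the 8 libraries, by a median of 0.21 on the log2 scale. Of all genes tested, 8099 of 15318 were above theirs there, with a median of 0.011. For the members *Piezo1*-deficient replicate 3 was the lowest, with 8 of 82 above their mean and a median of -0.10 (all genes, 7832 of 15318). Without replicate 4 of the *Piezo1*-deficient group the median log2 fold change was -0.0092 and 36 of 82 members were positive. WT replicate 5, with 11 of 82 members above their mean, also had a part. Without it the median was 0.022 and 49 of 82 were positive.

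**Figure D2:**
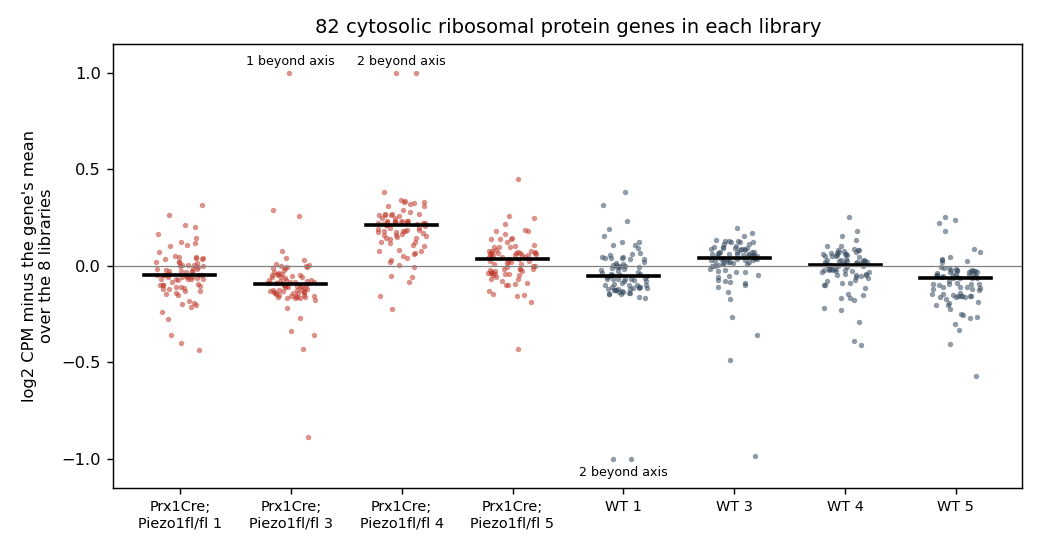
Log2 CPM of each of the 82 genes in each library, minus that gene's mean over the 8 libraries, with the *Prx1Cre; Piezo1fl/fl* libraries on the left and WT on the right; black bars are medians and points beyond 1 are drawn at the edge. The cloud of replicate 4 of *Prx1Cre; Piezo1fl/fl* (median 0.21) sits above the others, whose medians run from -0.10 to 0.04.

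The members moved together from library to library. Taking away each library's median over the members lowered their median SD within a genotype from 0.12 to 0.070 on the log2 scale. The SD became smaller for 67 of 82 genes. Over all genes tested the median SD, with nothing taken away, was 0.17. Those genes had far lower levels (median 19.9 CPM, against 161 CPM for the members), and the SDs were not matched for level. Both subunits shared this: in replicate 4 of the *Piezo1*-deficient group 46 of 50 large-subunit and 30 of 32 small-subunit genes were above their mean. So were 89 of the 104 tested rows named as ribosomal protein pseudogenes, which share sequence with the members, and 66 of 78 mitochondrial ribosomal protein genes, by a median of 0.12. Members with a run of at least 7 pyrimidines in a start-site window had a median of 0.21 there, with 31 of 33 above their mean. Those without one had a median of 0.19, with 26 of 29. The run may lie before the annotated start, and that start can miss the true one. This split therefore cannot part mRNAs with a TOP tract from those without.

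*Rpl3l* stood apart from the other members. This gene (NCBIM37, chromosome 17, 24864774 to 24873094, plus strand) encodes the muscle form of RPL3, the large-subunit protein next to the peptidyl transferase centre. It had 1.61, 14.2, 6.74 and 1.56 CPM in *Piezo1*-deficient replicates 1, 3, 4 and 5, from 19, 193, 92 and 18 counts, against 0.705, 1.02, 1.62 and 1.41 CPM in WT, from 9, 14, 25 and 18 counts. Replicates 3 and 4 of the *Piezo1*-deficient group were high, and the other 2 lay just under the highest WT value. The log2 fold change was 2.34 (SE 0.68, edgeR adjusted p = 0.095), and the two-sided exact permutation test gave p = 0.0857, where 0.0286 is the smallest this design allows. The adjusted p was 0.0495 in the DESeq2 Wald test and ran from 0.0226 to 0.217 over the alternatives. It passed 0.05 in edgeR without *Piezo1*-deficient replicate 1 (0.0226), and without replicate 3 the log2 fold change was 1.48.

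The same 2 libraries were highest in skeletal muscle genes. The summed level of the 20-gene muscle list, which does not hold *Rpl3l*, was 615, 5821, 2377 and 631 CPM in *Piezo1*-deficient replicates 1, 3, 4 and 5, against 45.5, 37.1, 225 and 129 CPM in WT. All 20 genes were higher in every *Piezo1*-deficient library than in every WT library. *Acta1*, the actin of skeletal muscle fibres, had 89.4, 791, 388 and 93.5 CPM in *Piezo1*-deficient and 3.61, 0.51, 26.5 and 13.6 CPM in WT libraries. The part of muscle RNA in the *Rpl3l* values was not tested.

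**Figure D3:**
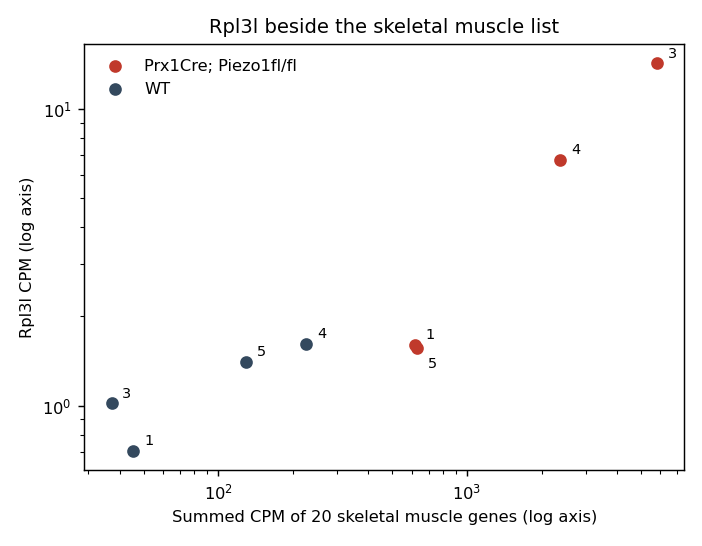
*Rpl3l* CPM against the summed CPM of 20 skeletal muscle genes in each library (both axes logarithmic), *Prx1Cre; Piezo1fl/fl* in red and WT in dark blue, numbered by replicate. Replicates 3 and 4 of *Prx1Cre; Piezo1fl/fl*, with 14.2 and 6.74 CPM of *Rpl3l*, also have the highest muscle sums, 5821 and 2377 CPM.

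*Rpl3* is the form used in most tissues. It had 205, 187, 208 and 199 CPM in *Piezo1*-deficient and 210.2, 208.1, 213 and 210.0 CPM in WT libraries. Every *Piezo1*-deficient value was under every WT value, if by little, and the log2 fold change was -0.076 (SE 0.059, edgeR adjusted p = 0.54, exact permutation p = 0.0286). *Rpl3* and *Rpl23* were the only 2 of 82 members without overlap of the genotypes, both lower in *Piezo1*-deficient bone. Of all genes tested 11.9% did not overlap, 5.27% lower and 6.65% higher in *Piezo1*-deficient bone.

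*Rpl23* (chromosome 11, 97638841 to 97643751, minus strand) encodes a large-subunit protein that, besides its place in the ribosome, binds the p53 inhibitor MDM2 when ribosome assembly fails. It had 32.5, 33.6, 34.8 and 31.7 CPM in *Piezo1*-deficient and 37.2, 38.5, 41.0 and 41.0 CPM in WT libraries, the clearest separation among members. The log2 fold change was -0.25 (SE 0.065, edgeR adjusted p = 0.070, exact permutation p = 0.0286). The adjusted p was 0.0452 in the DESeq2 Wald test and ran from 0.0452 to 0.206 over the alternatives. *Snora21*, a small nucleolar RNA gene, lies inside *Rpl23*. Of the 50-base stretches of the *Rpl23* coding sequence 86.6% also occur elsewhere in the genome, so reads from them may match elsewhere too. How such reads were counted is not given in the sources used here.

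*Rpl5* and *Rpl11*, whose proteins also bind MDM2, had log2 fold changes of 0.085 and -0.10 (edgeR adjusted p = 0.59 and 0.52). Of 19 tested p53 target genes none passed the test in either direction, where 3.02% of all genes did. At that share so short a list would hold few or none, so this count says little about p53. *Cdkn1a*, the cell cycle inhibitor p21, averaged 107 ± 22.3 CPM in *Piezo1*-deficient and 91.5 ± 12.2 CPM in WT bone (SD, n = 4 each; edgeR adjusted p = 0.43).

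*Rpl39l*, the sister of *Rpl39* known from the testis, had 16.1, 17.1, 18.1 and 13.8 CPM in *Piezo1*-deficient and 14.5, 12.7, 12.2 and 11.3 CPM in WT libraries. The genotypes overlapped in 1 pair of libraries, *Piezo1*-deficient replicate 5 and WT replicate 1. The log2 fold change was 0.36 (SE 0.11, edgeR adjusted p = 0.12, exact permutation p = 0.0571). None of its coding 50-base stretches occurs elsewhere in the genome. *Rpl39* itself had 206 to 298 CPM in *Piezo1*-deficient and 222 to 250.2 CPM in WT libraries, a log2 fold change of -0.016 (SE 0.11).

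*Rps28*, chosen after its values were seen, was high in 1 library only. It had 1.1, 0.517, 13.9 and 0.956 CPM in *Piezo1*-deficient replicates 1, 3, 4 and 5, from 13, 7, 190 and 11 counts, against 0.392, 0.728, 0.777 and 0.781 CPM in WT. The log2 fold change of 2.62 (SE 1.00, edgeR adjusted p = 0.19) became 0.33 without replicate 4 of the *Piezo1*-deficient group. Every coding 50-base stretch of *Rps28* also occurs elsewhere in the genome, and 6 other loci hold at least 20 such stretches each. The gene overlaps *Kank3*. *Rack1*, a scaffold protein of the small subunit that the symbol rule does not reach, was also highest in that library, at 156, 159, 274 and 155 CPM in *Piezo1*-deficient and 157 to 168 CPM in WT libraries.

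**Figure D4:**
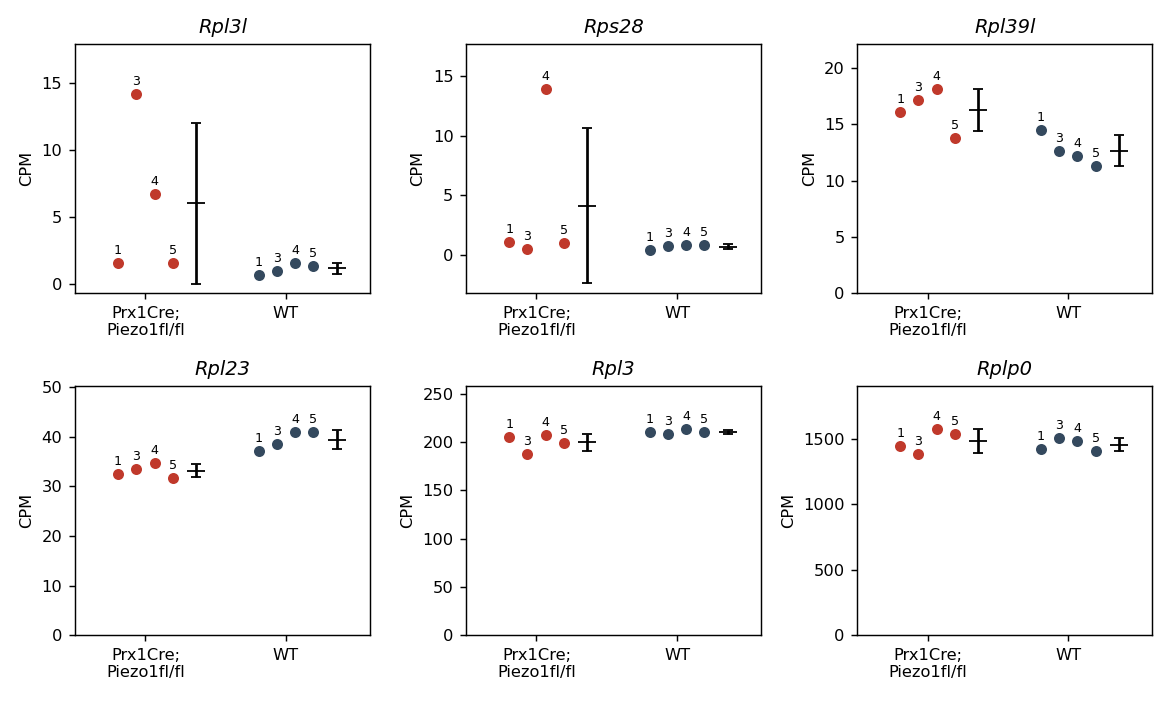
CPM of 6 ribosomal protein genes in each library, *Prx1Cre; Piezo1fl/fl* (red) left of WT (dark blue), numbered by replicate; the black mark beside each group is its mean with SD (n = 4). *Rpl3l* is high in replicates 3 and 4, *Rps28* in replicate 4 alone (13.9 CPM), *Rpl23* is lower in all 4 *Prx1Cre; Piezo1fl/fl* libraries, and *Rplp0* overlaps between the genotypes.

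The other members with the largest estimates did not pass the test. On the positive side were *Rps27a*, a fusion of ubiquitin and a small-subunit protein, *Rpl41*, the shortest protein of the ribosome, *Rpl28*, and *Rpl38*, which mice need for the translation of Hox mRNAs and for a normal axial skeleton. *Rps27a* had 19.2, 19.2, 23.2 and 20.2 CPM in *Piezo1*-deficient and 19.2, 15.5, 17.4 and 16.6 CPM in WT libraries (log2 fold change 0.25, SE 0.099, edgeR adjusted p = 0.20). *Rpl41* had 781, 742, 867 and 843 CPM in *Piezo1*-deficient and 671, 763, 699 and 619 CPM in WT libraries (0.23, SE 0.083, adjusted p = 0.17 in edgeR). Only WT replicate 3 reached into the *Piezo1*-deficient range of *Rpl41*. *Rpl28* and *Rpl38* had log2 fold changes of 0.22 and 0.20, with adjusted p of 0.37 and 0.29 in edgeR.

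On the negative side *Rpl17*, *Rpl36a* and *Rpl23a*, which sits at the exit of the peptide tunnel, followed *Rpl23*, with log2 fold changes of -0.18, -0.14 and -0.13 (edgeR adjusted p = 0.41, 0.54 and 0.39). *Rpl17* was tight in WT, at 17.7 ± 0.176 CPM, and ran from 13.7 to 18.9 CPM in *Piezo1*-deficient libraries. The spread of the *Piezo1*-deficient libraries was wider over the members as a whole, with a median SD of 0.14 on the log2 scale, against 0.084 in WT, and so it was over all genes tested, at 0.18 against 0.14.

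Of the most abundant members, none passed the test in edgeR. The stalk proteins, which draw elongation factors to the ribosome, are encoded by *Rplp0*, *Rplp1* and *Rplp2*. *Rplp0* had 1444, 1381, 1576 and 1541 CPM in *Piezo1*-deficient and 1424, 1509, 1483 and 1408 CPM in WT libraries, a log2 fold change of 0.029 with a 95% interval from -0.13 to 0.19. *Rplp1* and *Rplp2* had log2 fold changes of 0.16 (interval -0.039 to 0.36) and 0.13 (interval -0.067 to 0.32). *Rpl4* and *Rpl13a* of the large subunit stood at -0.016 and 0.024. Of the small subunit, *Rps3*, at the mRNA entry channel, stood at -0.041, *Rps4x* at 0.027, *Rpsa* at 0.054 and *Rps9* at 0.011, with SE of 0.074 to 0.085.

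Among the remaining sister genes, *Rpl22l1* had 64.8, 58.0, 69.8 and 61.3 CPM in *Piezo1*-deficient and 54.5, 57.1, 59.5 and 59.3 CPM in WT libraries (log2 fold change 0.14, SE 0.071, edgeR adjusted p = 0.32), beside 0.017 for *Rpl22*. *Rps27l*, a p53-induced gene in human cells, and *Rps27* stood at 0.044 and 0.012. *Rpl7l1* and *Rpl7* stood at -0.031 and -0.016, and *Rpl10* at -0.014. *Rpl10l* was not analysed here, and the pseudogene *Rps4l* had 2 to 6 counts in every library.

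Members differed far more from each other than between the genotypes. Per kilobase of coding sequence, the highest level was that of *Rplp1*, 2329 ± 299 CPM per kb in *Piezo1*-deficient and 2081 ± 81.5 CPM per kb in WT bone (SD, n = 4 each). Levels per kb went with repeated sequence. Coding sequences of 81 members (all but *Rpl41*) were matched to GENCODE M1 on NCBIM37, and each 50-base stretch was searched for elsewhere in that genome, where many processed copies of these genes lie. In 29 members every stretch occurred elsewhere, and their median level over both genotypes was 53.8 CPM per kb, with the lowest, 9.85 CPM per kb, for *Rps13*. The 38 members with 50% or more of their stretches repeated, but not all, had a median of 588 CPM per kb, and the 14 members with less had 709 CPM per kb. Of the 10 lowest levels 9, and of the 10 highest 0, belonged to members with every stretch repeated. The exception among the lowest was *Rpl3l*.

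**Figure D5:**
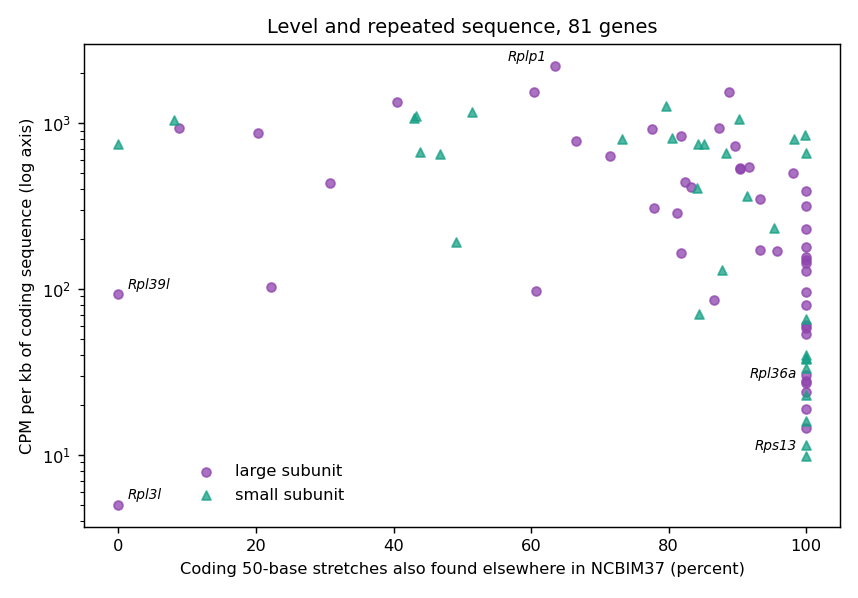
Level of 81 ribosomal protein genes, as CPM per kb of coding sequence averaged over both genotypes (logarithmic axis), against the percent of the gene's coding 50-base stretches found elsewhere in NCBIM37. Levels fall over more than 1 order of magnitude among the 29 genes at 100%, whose median is 53.8 CPM per kb.

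Across these 81 genes Spearman's rho between level and repeated share was -0.62, a description over genes that share libraries and an aligner. How reads with several equal matches were counted is not given in the sources used here, and its part in these levels was not tested. The fold changes of the 3 classes were close: medians of 0.0087 for the fully repeated members, 0.053 for the class between and 0.042 for the least repeated.

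The genes that build and use ribosomes were set beside the members, from lists of known factors. None of them passed the edgeR test, where 3.02% of all genes tested did. At that share lists this short would hold few such genes, so these counts say little. They were 0 of 20 elongation factor and other TOP mRNA genes, 0 of 27 translation initiation factors and 0 of 20 mTORC1 and TOP regulators. The other counts were 0 of 64 ribosome biogenesis factors, 0 of 15 RNA polymerase I genes and 0 of 78 mitochondrial ribosomal protein genes. *Eef1a1*, which brings aminoacyl-tRNA to the ribosome, averaged 4939 ± 156 CPM in *Piezo1*-deficient and 4885 ± 143 CPM in WT bone (SD, n = 4 each), and *Eef2*, the translocase, 2236 ± 246 and 2183 ± 100.02 CPM. *Larp1* averaged 144 ± 9.45 CPM in *Piezo1*-deficient and 147 ± 12.7 CPM in WT bone. The ribosomal protein genes *Fau*, *Rack1* and *Rpl36al*, whose symbols lie outside the rule, had log2 fold changes of 0.12, 0.19 and 0.12, and the lowest adjusted p of these in edgeR was 0.48.

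The biogenesis factors had a median log2 fold change of -0.0995, with 59 of 64 negative, where 51.1% of all genes were positive. The nucleolar protein nucleolin, from *Ncl*, had 412, 422, 435 and 418 CPM in *Piezo1*-deficient and 479, 452, 449 and 446 CPM in WT libraries (log2 fold change -0.11, SE 0.059, edgeR adjusted p = 0.34). WT replicate 1 was the high library here, with 61 of 64 factors above their mean, where 7670 of all 15318 genes tested were above theirs. Without it the median was -0.043 and 45 of 64 were negative. The RNA polymerase I genes had a median of -0.079, with 12 of 15 negative, and -0.014 without WT replicate 1. The initiation factors (median -0.0034), the elongation list (-0.027) and the mitochondrial ribosomal proteins (0.0078) lay near 0.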

How the data were processed

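The deposited table gives whole-number counts per gene for each library, made by the authors; the authors' own comparison in it (a log2 fold change, a p-value and its FDR) was not used. The study's methods name mm9, TopHat and Cufflinks, the submitters' processing notes HISAT2 and GRCm38; the read counter is not given in the sources used here. Members and gene lists were chosen with earlier results of these data known. The test was that of edgeR 4.0.16 (R 4.3.3; filterByExpr, TMM, quasi-likelihood F test, Benjamini-Hochberg over 15318 genes, called at an adjusted p under 0.05); it was run on simulated counts first. The SE is the log2 fold change over the square root of F, in absolute value. Errors of means are SD over 4 libraries. Exact permutation tests were two-sided over 70 arrangements. Genes with values were those called, the 5 largest estimates each way with a mean of at least 5 CPM, the 4 most abundant per subunit, sister genes and stalk genes; *Rps28*, *Rpl5* and *Rps13* were named outside this rule. Results of some single genes are not reported here. Of each list, 4 called genes or the 2 most abundant qualified. Alternatives were other size factors, filters, library sizes, DESeq2 1.42.0, a replicate block and leaving out each library; keeping the 5 pseudogenes, and list medians without each library, were added after seeing the data. No 2 libraries agreed within sampling noise. The 50-base search was exact, with numba 0.67.0 and coding sequences of CCDS transcripts.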

Additional observations from a re-analysis of the deposited data

Results flagged for a closer look

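Within each genotype the levels of 30 named ribosomal protein genes, and the summed level of all 82, were examined for a library far from the other 3 by Dixon's ratio, 62 groups in all, of which chance would mark about 1 in 20. In 5 groups there was such a library, 2 of them of *Rps28*. This gene was named after its values were seen, because of its high library. Its flag in *Piezo1*-deficient replicate 4 therefore restates that choice, and its WT flag was examined only because of it. *Rps28* stood apart in *Piezo1*-deficient replicate 4, at 13.9 CPM against 0.517 to 1.1 CPM in the other 3, and in WT replicate 1, at 0.392 CPM against 0.728 to 0.781 CPM, where the values rest on 5 to 12 counts. *Rpl11* had 88.3 CPM in *Piezo1*-deficient replicate 4 and 71.8 to 74.4 CPM in the other 3. *Rpl39* had 222 CPM in WT replicate 1 and 247 to 250.2 CPM in the other 3. *Rpl7l1* had 86.6 CPM in WT replicate 1 and 72.7 to 74.7 CPM in the other 3.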

How the results depend on the processing

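Under the alternatives the members' median log2 fold change ran from -0.0092 (without *Piezo1*-deficient replicate 4) to 0.069, and the log2 ratio of their summed levels from -0.012 to 0.079. Members called numbered 0 higher and 0 lower, except 1 higher and 1 lower in the DESeq2 Wald test, and 0 to 1 higher with each library left out. Over all genes, 313 were called higher and 149 lower, against 592 and 358 by DESeq2, and 71 to 415 and 49 to 271 with 1 library left out; fewer libraries were fitted there. With the replicate number as a block, 506 and 320 genes were called, with 1 member higher (*Rpl3l*, adjusted p = 0.0439). The deviations of same-numbered libraries had correlations of 0.33, -0.22, 0.17 and -0.0095 for replicates 1, 3, 4 and 5. Of 8 libraries 3 correlated best with their own number. These values do not settle whether the numbers mark pairs. Estimates near 0 changed sign. *Rps9* stood at -0.00085 with library sizes without *Col1a1*, *Col1a2* and *Sparc*. With 1 library left out the log2 fold changes ran from -0.070 to 0.0037 for *Rpl4*, -0.086 to 0.020 for *Rpl7*, -0.14 to 0.045 for *Rpl39*, -0.083 to 0.12 for *Rps27*, -0.063 to 0.021 for *Rpl10*, -0.00042 to 0.057 for *Rplp0*, -0.051 to 0.066 for *Rpl13a*, -0.036 to 0.059 for *Rps4x*, -0.0058 to 0.093 for *Rpsa*, -0.036 to 0.058 for *Rps9*, -0.11 to 0.077 for *Rpl22*, -0.027 to 0.087 for *Rps27l* and -0.058 to 0.031 for *Rpl7l1*. The cause of these changes was not tested. Among single genes 446 comparisons kept direction and side of the threshold, 27 changed sign and 4 came to pass it (*Rpl3l* 3 times, *Rpl23* in DESeq2). A filter at a mean of 5 CPM removed *Rpl3l*, *Rps28*, *Rps13* and *Rps27*, so these have no value there, and DESeq2 gave *Rps28* no adjusted p. Counts of 5 to 13 in all but 1 library, as for *Rps28*, limit what can be told of the lowest members.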
